A study of Mus musculus with 8 samples.

Results

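From a table of 27179 genes, 48 genes that encode subunits, assembly factors and direct regulators of the proteasome were read. They were chosen by symbol alone: Psm, then a letter from a to g, then a number, with capitals ignored because the table writes symbols in capitals. Proteasome genes with other names, such as Adrm1, Sem1 and Pomp, are therefore not among the 48 or in their sums. The set holds 7 alpha and 7 constitutive beta genes of the core, 3 immunoproteasome genes (Psmb8, Psmb9 and Psmb10), 2 core genes known for use in single tissues (Psma8 and Psmb11), 6 ATPase and 11 non-ATPase genes of the regulatory cap, 7 assembly chaperones, 4 activators and 1 inhibitor. A gene entered the tests when it reached 1 RPKM (reads scaled to transcript length and library size) in at least 2 of the 8 libraries. Of the 48 genes, 46 did so, as did 10541 of all genes.

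The cells were lymphoid tissue inducer (LTi) cells, innate lymphocytes that help to seed lymphoid organs, sorted from C57BL/6 mice as lineage-negative CD127+ CCR6+ cells lacking KLRG1, NK1.1 and NKp46. They came from Peyer's patches (PP), the lymphoid follicles of the gut wall, or from small-intestinal lamina propria (LP). The genotypes were Tcf7+/+, called wild-type, and Tcf7fl/fl with a Cre transgene, called labelled knockout. Each genotype in each tissue had 2 libraries, which gave 4 groups. Total RNA was sequenced with Smart-seq2, which amplifies cDNA from small inputs by PCR. Tcf7 encodes the transcription factor TCF-1. Age and sex are not in the labels used here. The labels do not say whether the libraries of a group came from separate or pooled animals, so the p-values measure only the spread between these libraries, which may be technical.

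The proteasome degrades proteins that carry ubiquitin chains. Its barrel-shaped core has outer rings of alpha subunits, which gate the entrance, and inner rings of beta subunits, of which Psmb5, Psmb6 and Psmb7 carry the cutting sites. A regulatory cap binds ubiquitin chains, unfolds the protein with its ATPase ring and feeds it into the core. In immune cells, and in other cells after interferon gamma, Psmb8, Psmb9 and Psmb10 can take the places of Psmb5, Psmb6 and Psmb7, and the resulting immunoproteasome is known for making peptides that MHC class I presents.

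Library checks came first. The deposited table holds no counts, and the size of single-read steps put the depth at 38.4 to 44.3 M reads per library, so that 1 read in a transcript of 1 kb was worth 0.0226 to 0.0261 RPKM. Tcf7 itself was at 243 and 85.4 RPKM in PP of wild-type mice against 355 and 337 under the knockout label, and in LP at 229 and 246 against 237 and 215. The transcript was therefore not lower under the knockout label, and the labels do not say which exons are floxed, so a whole-gene value does not check the deletion. LTi and ILC3 markers summed to 6526 to 7320.2 RPKM in PP and 3362 to 3956 in LP. B and plasma cell markers summed to 7127 to 13748 RPKM in PP and 24500 to 38719 in LP. T cell markers summed to 732 to 999 in PP and 272 to 463 in LP, epithelial markers to 158 to 976 and 328 to 794, myeloid markers to 155 to 358 and 122 to 231, stromal and endothelial markers to 78.5 to 205 and 28.1 to 64.5, and markers of other innate lymphocytes to 0.569 to 75.1 and 21.2 to 84.7. Transcripts of the mitochondrial genome made up 13.4% and 13.6% of all RPKM in the PP libraries of the knockout label and 3.06% to 5.06% in the other 6.

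Values below are in RPKM and follow a fixed order: within each tissue, PP first and LP second, replicates 1 and 2 of wild-type precede replicates 1 and 2 of the knockout label. The low-value filter left out 2 genes. Psmb11, the beta subunit known from the cortical epithelium of the thymus, was listed at 0 in all 8 libraries. Psma8, the alpha subunit known from the testis, was listed at 0 in 7 libraries and stood at 0.481 RPKM in labelled knockout LP replicate 2. The other 46 genes were detected more evenly than the transcriptome around them: 1 to 6 of the 46 were under 1 RPKM in any library, against 23.1% to 41.2% of all genes kept.

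**Figure D1:**
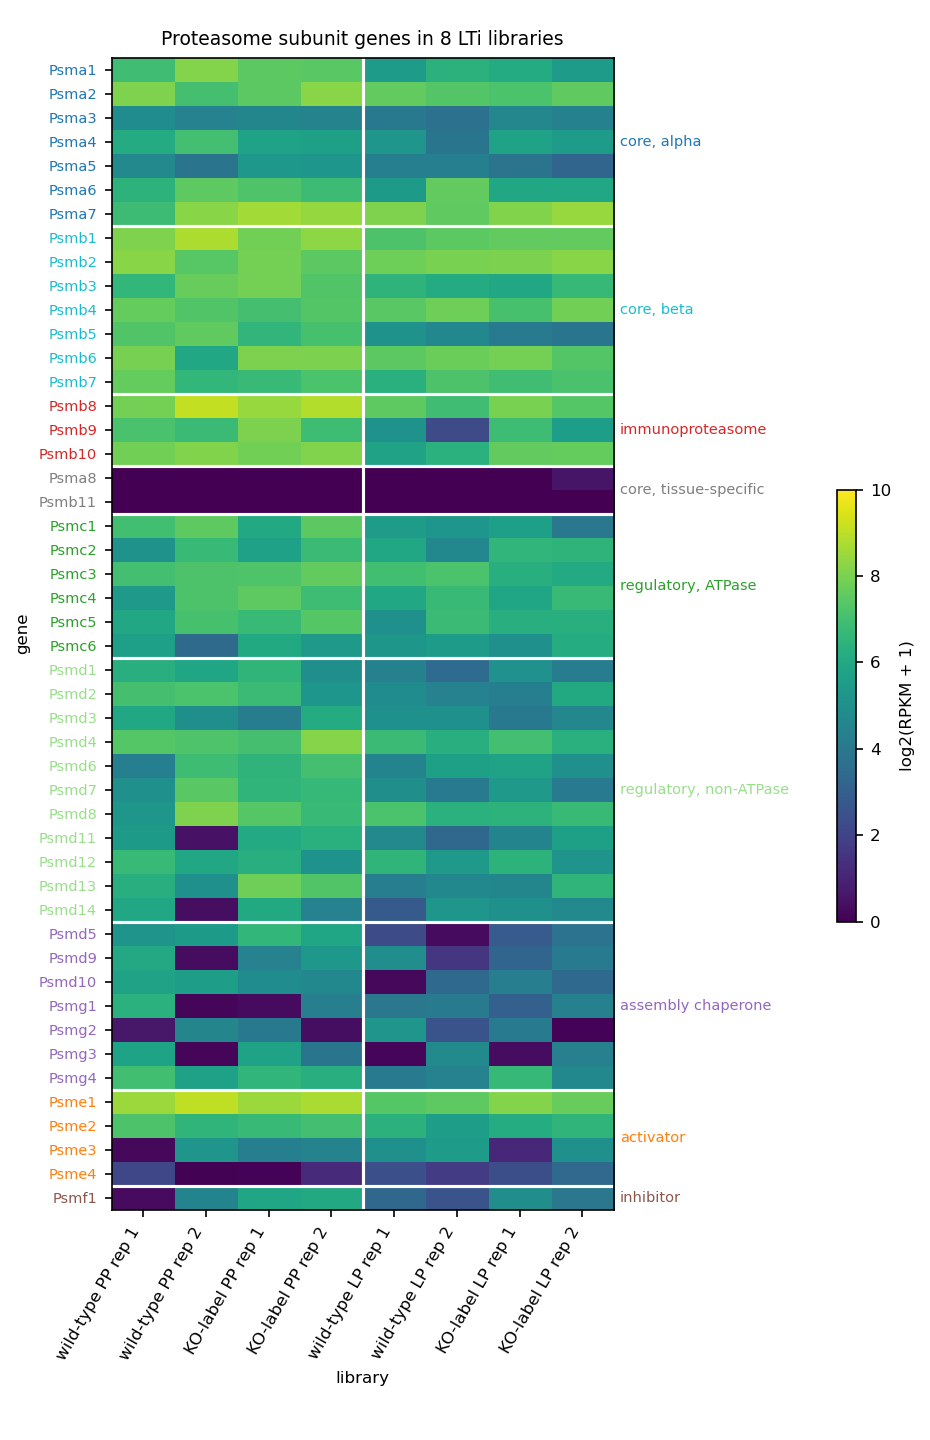
Level of each of the 48 proteasome genes (vertical axis, grouped and coloured by role) in each of the 8 libraries (horizontal axis), as log2(RPKM + 1) on the colour scale. Core and immunoproteasome genes are bright in most libraries, Psma8 and Psmb11 are dark, and isolated dark cells mark assembly chaperones and single regulatory genes that drop out of 1 library of a pair.

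Levels per kilobase differed between roles and within them. Among the alpha genes, the mean over the 8 libraries was highest for Psma7 (279 RPKM) and lowest for Psma3 (20.6 RPKM). Among the constitutive beta genes it was highest for Psmb1 (245 RPKM) and lowest for Psmb5 (82.9 RPKM), and among the immunoproteasome genes it was highest for Psmb8 (289 RPKM) and lowest for Psmb9 (104 RPKM). The mean ran from Psmc6 (44.3 RPKM) to Psmc3 (129 RPKM) among the cap ATPases and from Psmd14 (31.1 RPKM), the deubiquitinase of the cap, to Psmd4 (141 RPKM), a ubiquitin receptor, among the non-ATPase genes. Assembly chaperones were the low group, from Psmg2 (12.1 RPKM) to Psmg4 (63.9 RPKM). Activators spanned the widest range, from Psme4 (3.18 RPKM) to Psme1 (312 RPKM), the highest mean of all 48 genes.

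Single genes differed between replicates. The gap between the 2 libraries of a group was over 1 on the log2 scale for 27 of the 46 genes in wild-type PP, 13 in labelled knockout PP, 14 in wild-type LP and 14 in labelled knockout LP. These are 58.7%, 28.3%, 30.4% and 30.4% of the 46, against 48.0%, 47.0%, 41.9% and 47.5% of all genes kept, so the share was above that of all genes in wild-type PP and below it in the other groups. In wild-type PP, 8 genes had a gap over 3: Psmg1, Psmd9, Psmg3, Psmd14, Psmd11, Psme3, Psmf1 and Psmg2. Psmg1, a chaperone of core assembly, stood at 83.0 RPKM in replicate 1 of wild-type PP and 0.137 RPKM in replicate 2, and Psmd11, a cap scaffold subunit, at 43.0 and 0.387 RPKM.

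Summed over all 48 genes, proteasome transcripts were less abundant in LP than in PP. The sums were 4965, 5886, 5780.0 and 5966 RPKM in PP and 3096, 3229.5, 3707 and 3696 RPKM in LP. All 4 LP libraries lay below all 4 PP libraries. The mean was 5649 ± 462 RPKM in PP and 3432 ± 316 RPKM in LP (SD, n = 4 libraries of each tissue, both genotype labels together), a ratio of 0.608. As a share of each library's summed RPKM, the genes made up between 0.883% and 1.07% in PP and between 0.569% and 0.697% in LP. The LTi and ILC3 marker sum fell short in LP too, at 0.530 of its PP mean. Per 100 RPKM of those markers, the proteasome genes held 67.8 to 90.2 RPKM in PP and 78.5 to 110.3 RPKM in LP, and the tissues overlapped. The means were 80.5 in PP and 92.6 in LP. Without Id2 and Ltb among those markers, a choice made after seeing the values, they were 139 to 227 in PP and 119 to 207 in LP, again with overlap, and the means turned to 179 and 159.6. B and plasma cell markers moved with tissue as well: 12 of the 14 were kept, Igkc and Igha held most of the LP sum, Pax5 was at 0 in all 8 libraries, and Ms4a1 was at 0.0497 to 0.0694 RPKM in the 4 LP libraries. T cell and stromal marker sums, given above, were lower in every LP library than in every PP library. Trbc1, Trbc2 and Lat held most of the T cell sum, and Cd247 was at 0 to 0.593 RPKM. Of the 11 stromal and endothelial markers 2 were kept, Pdgfrb and Pecam1, and Col1a1 was at 0 in all 8 libraries. These sums therefore do not show how many T or stromal cells were present. The part of other cells in the proteasome difference was not tested. In sorted bulk samples, fewer LTi cells among the sorted cells and less RNA of these genes per cell cannot be told apart. Among the LTi and ILC3 markers, Cxcr5, Gata3, Id2, Lta and Ltb had all LP libraries below all PP libraries and Tnfsf11 had all above, and Id2 and Ltb together made up 34.2% to 60.4% of the sum.

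**Figure D2:**
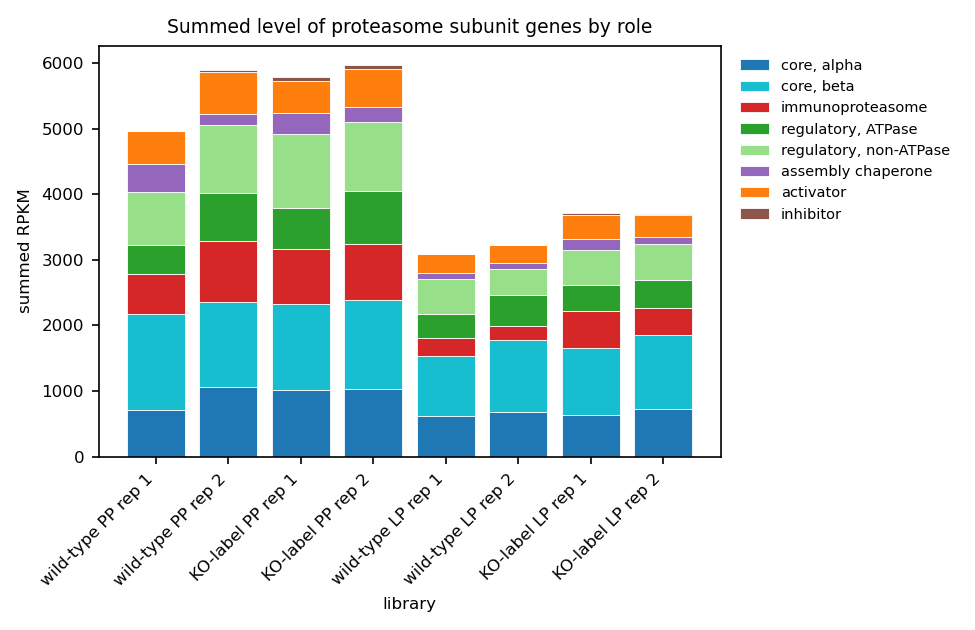
Summed RPKM of the proteasome genes (vertical axis, from 0) in each library (horizontal axis), stacked by role; Psma8 and Psmb11 add at most 0.481 RPKM and are not drawn. The PP bars reach 4965 to 5966 and the LP bars 3096 to 3707, while per 100 RPKM of LTi and ILC3 markers the tissues overlap.

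The ratio of LP to PP differed between roles. A ratio does not give the part of a role in the lower LP sum. The inhibitor gene Psmf1, at a mean of 37.2 RPKM in PP and 14.6 in LP, had a ratio of LP to PP of 0.392, and its values overlapped. Assembly chaperones, at a mean of 280.0 RPKM in PP and 111 in LP, had a ratio of LP to PP of 0.397. Immunoproteasome genes, at 808 and 362 RPKM, had a ratio of 0.448. Non-ATPase cap genes followed at 0.502, activators at 0.570, cap ATPases at 0.635, alpha genes at 0.693 and constitutive beta genes at 0.772. For chaperones, immunoproteasome, non-ATPase cap, activator and constitutive beta genes every LP library had a lower sum than every PP library. As a share of the library's summed RPKM the chaperones overlapped, at 0.0289% to 0.0740% in PP and 0.0141% to 0.0303% in LP. The sums of alpha genes (618 to 722 RPKM in LP, 718 to 1056 in PP) and of cap ATPases (364 to 470.1 in LP, 436 to 805 in PP) overlapped.

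The tissue difference was tested gene by gene with limma on log2(RPKM + 1), with p-values adjusted over all 10541 genes by the Benjamini-Hochberg method and 0.05 as the threshold. Fold changes are LP minus PP on that scale, with the standard error of the fit. In the additive model, which averages over both genotype labels and takes the 8 libraries as independent, 3 of the 46 genes fell and 0 rose, where 2.03% of all genes fell and 2.30% rose. The 3 were Psmb5, Psmd5 and Psma1. At an unadjusted p under 0.05, 17 of the 46 were lower, against 10.8% of all genes, and 0 were higher, against 8.60%. The fold change was below 0 for 36 of the 46 genes, against 53.0% of all genes, and the median was -0.69 over the 46 and -0.10 over all genes. After rescaling each library to its LTi and ILC3 marker sum, an alternative chosen after seeing the data, the median over the 46 turned to 0.21 and that over all genes to 0.51.

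**Figure D3:**
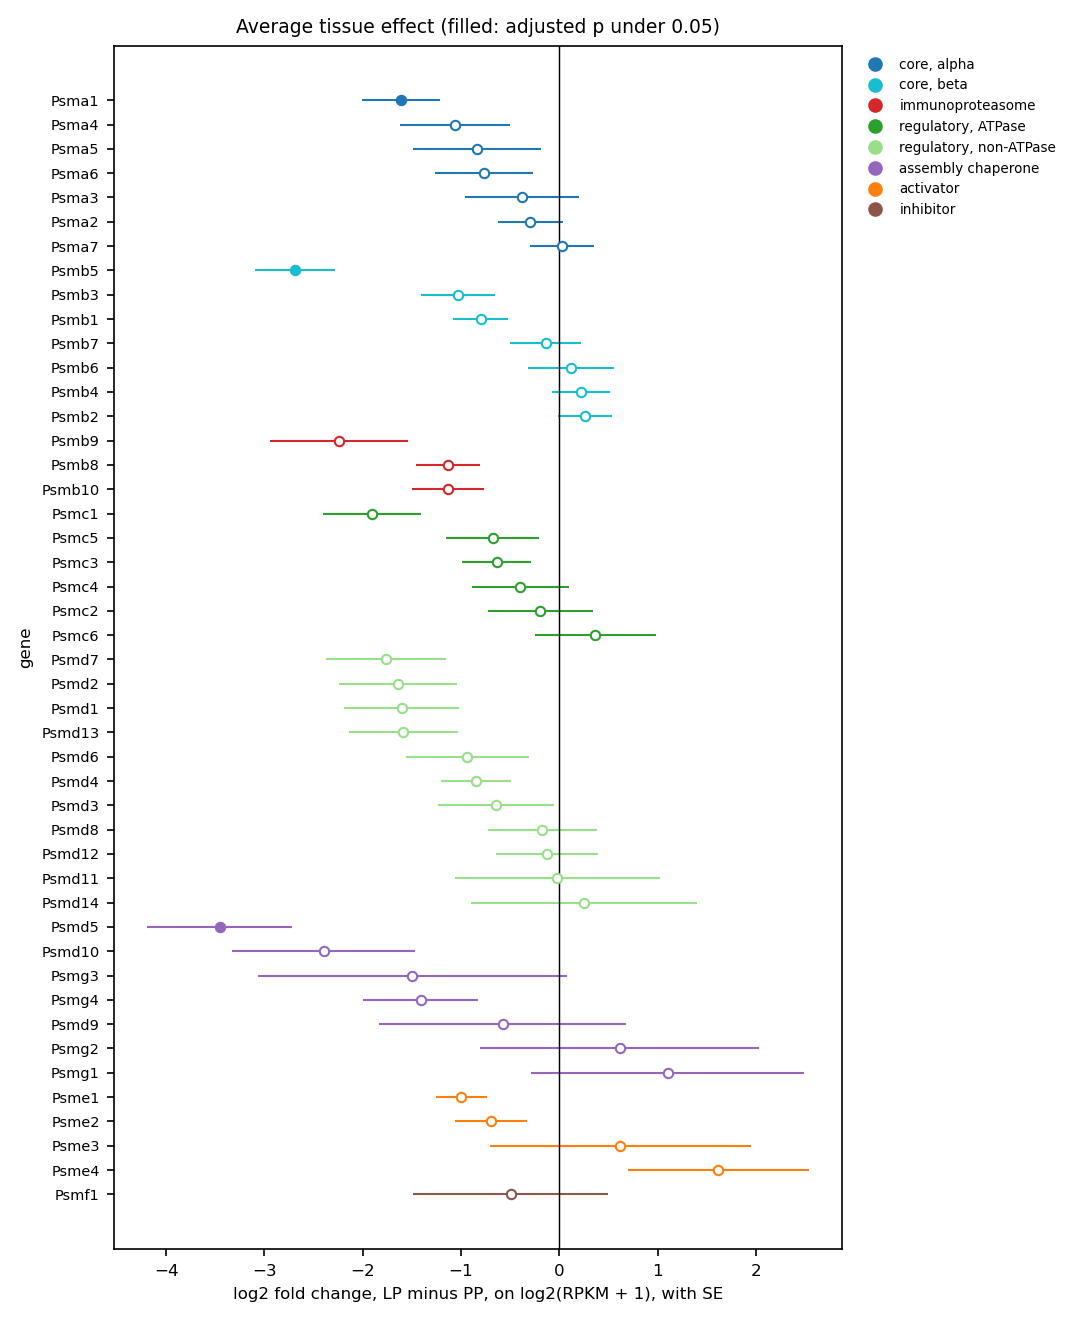
Average tissue effect of each of the 46 tested genes (vertical axis, grouped and coloured by role): log2 fold change, LP minus PP, on log2(RPKM + 1), with its standard error as the bar. Filled points pass an adjusted p under 0.05; these are Psma1, Psmb5 and Psmd5, and 36 of 46 points lie below 0, a direction that turns for the median when libraries are rescaled to their LTi marker sum.

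Psmb5, the constitutive subunit with the chymotrypsin-like site, had the firmest difference. It lies on chromosome 14 (chr14:54614120-54617995, GRCm38.p6) and stood at 157, 186, 94.7 and 137 RPKM in PP and at 34.0, 24.5, 16.2 and 13.7 RPKM in LP. Every LP library was far below every PP library, and the labelled knockout LP pair was below the wild-type LP pair. The fold change was -2.69 ± 0.41 with a limma adjusted p of 0.00458, and it passed in all 16 alternative settings run for it, the rescaling to LTi markers among them, with adjusted p of 0.00248 to 0.0289. Per 100 RPKM of LTi and ILC3 markers, Psmb5 held 1.34 to 2.86 RPKM in PP and 0.346 to 0.861 in LP. Without Id2 and Ltb in that marker sum the ranges were 2.77 to 7.21 and 0.626 to 1.31, so the tissues stayed apart by either measure.

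Psmd5, a chaperone that helps to assemble the base of the cap, lies on chromosome 2 (chr2:34852087-34870965, GRCm38.p6). It stood at 34.9, 42.1, 96.7 and 57.3 RPKM in PP and at 3.87, 0.225, 6.26 and 13.1 RPKM in LP. All LP values were below all PP values, and wild-type LP replicate 2 was the lowest. Per 100 RPKM of LTi and ILC3 markers, Psmd5 held 0.477 to 1.37 RPKM in PP and 0.00614 to 0.332 in LP, without overlap. The fold change was -3.45 ± 0.74 with a limma adjusted p of 0.0270, and it passed in 8 of 16 alternative settings. Leaving out a library ended the call in 6 of 8 cases, with limma adjusted p of 0.0544 to 0.0984. Those were wild-type PP replicate 1 or 2, labelled knockout PP replicate 1 or 2, wild-type LP replicate 2 and labelled knockout LP replicate 1.

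Psma1, an alpha subunit, lies on chromosome 7 (chr7:114264550-114276116, GRCm38.p6). It stood at 122, 284, 179 and 174 RPKM in PP and at 44.9, 84.4, 69.6 and 44.9 RPKM in LP. In RPKM the tissues did not overlap. Per 100 RPKM of LTi and ILC3 markers they did, at 1.67 to 4.34 RPKM in PP and 1.13 to 2.30 in LP. The fold change was -1.61 ± 0.40 with a limma adjusted p of 0.0497, just inside the threshold. It passed in 2 of 16 alternative settings, with adjusted p of 0.0332 to 0.372, and among libraries left out only the removal of wild-type PP replicate 1 kept the call.

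The promoters of these 3 genes are shown because they are the genes whose difference between tissues passed. Each line gives the bases upstream of the annotated start from RefSeq's promoter table (GRCm38.p6), 5′ to 3′ on the gene's strand, ending before the first annotated exon. The stretches lie at chr14:54618023-54618245, chr2:34870966-34871212 and chr7:114276119-114276366, all on the minus strand. Capitals mark matches on either strand to CCAAT, to GGGCGG (the GC box), to TGACNNNGC (the core of the antioxidant response element), to CTTTGAT or CTTTGTT (motifs of the TCF/LEF family) and to CCGGAAG (the ETS core).
Psmb5: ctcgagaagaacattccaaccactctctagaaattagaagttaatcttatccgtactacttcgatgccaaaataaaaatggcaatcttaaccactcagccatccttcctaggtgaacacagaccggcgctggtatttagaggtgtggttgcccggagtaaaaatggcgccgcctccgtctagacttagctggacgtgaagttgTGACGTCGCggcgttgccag
Psmd5: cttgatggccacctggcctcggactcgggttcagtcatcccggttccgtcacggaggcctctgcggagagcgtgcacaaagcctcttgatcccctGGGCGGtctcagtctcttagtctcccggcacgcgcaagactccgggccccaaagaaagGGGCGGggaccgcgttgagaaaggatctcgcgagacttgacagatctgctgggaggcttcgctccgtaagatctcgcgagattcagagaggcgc
Psma1: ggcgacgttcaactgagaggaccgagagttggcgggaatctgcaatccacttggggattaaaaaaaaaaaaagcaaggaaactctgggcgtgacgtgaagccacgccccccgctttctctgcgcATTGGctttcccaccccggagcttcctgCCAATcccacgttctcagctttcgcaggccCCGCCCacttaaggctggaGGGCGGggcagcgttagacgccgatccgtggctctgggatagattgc
Psmb5 held 1 antioxidant response element core and no other of these motifs. Psmd5 held 2 GC boxes, and Psma1 held 2 CCAAT boxes and 2 GC boxes.

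Promoter windows of 250 bases were found for 40 of the 48 genes and for 27025 genes in all. CCGGAAG was in 12 of the 40 windows (30.0%), against 7.8% of all windows, and GGGCGG in 22 (55.0%), against 35.4%. CCAAT was in 14 (35.0%), against 37.5%, and TGACNNNGC in 5 (12.5%), against 11.5%, namely those of Psmb5, Psmb6, Psmc6, Psmd9 and Psmd12. CTTTGAT or CTTTGTT was in 1 window (2.5%), that of Psmd10, against 9.2% of all windows. These are matches of letters and not measured binding.

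Among the other constitutive core genes, directions were mixed. Psmb1 stood at 267, 438, 236 and 316 RPKM in PP and 147, 176, 191 and 191 in LP, without overlap. Psmb2 stood at 300.4, 167, 237 and 176 in PP and 220.0, 254, 263 and 294 in LP, and Psmb4 at 200.3, 153, 129.8 and 161 in PP and 171, 223, 135 and 232 in LP, and both overlapped. Their average tissue effects were 0.26 ± 0.28 and 0.22 ± 0.30, with limma adjusted p of 0.676 and 0.759. After rescaling to LTi markers both passed as higher in LP, at 1.18 and 1.13 with limma adjusted p of 0.0333 and 0.0461 (over their alternatives 0.0333 to 0.851 and 0.0461 to 0.957). Psmb6, the caspase-like site, stood at 244, 61.7, 263 and 263 RPKM in PP and 179, 215, 237 and 159.5 in LP. Psmb7, the trypsin-like site, stood at 197, 96.6, 109 and 142 RPKM in PP and 80.5, 149, 121 and 138 in LP. Neither separated the tissues, with effects of 0.12 ± 0.44 and -0.14 ± 0.36 and limma adjusted p of 0.925 and 0.892. Psmb5 was thus the 1 of the 3 constitutive catalytic genes whose tissue effect passed, and differences between the 3 effects were not tested.

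In the cap, 0 of 6 ATPase and 0 of 11 non-ATPase genes passed for the average tissue effect. At an unadjusted p under 0.05 1 of the 6 and 5 of the 11 were lower in LP, against 10.8% of all genes, and 0 were higher, against 8.60%. Psmc1, an ATPase whose tail opens the core gate, stood at 124, 182, 66.6 and 176 RPKM in PP and 44.9, 37.4, 48.5 and 15.1 in LP, without overlap. Its limma adjusted p was 0.0617 at -1.90 ± 0.50. Psmd4 stood at 164, 152, 131 and 288 RPKM in PP and 113, 76.3, 128 and 79.4 in LP, also without overlap. Psmd14 moved the other way in the fit, at 0.25, but its values of 61.0, 0.292, 66.9 and 20.6 RPKM in PP and 6.12, 36.6, 31.3 and 26.2 in LP overlapped.

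Across roles, 10 of the 46 genes had every LP library below every PP library, and 0 had every LP library above; among all genes 7.05% were fully lower and 6.54% fully higher. The 10 were Psma1, Psmb1, Psmb5, Psmb10, Psmc1, Psmd4, Psmd5, Psmd10, Psme1 and Psme2. Psme1 and Psme2 encode the subunits of an interferon-induced activator that opens the core, and they lie close together on chromosome 14 (chr14:55578494-55581527 and chr14:55587440-55591101, GRCm38.p6). Psme1 stood at 361, 520.0, 359.5 and 420.3 RPKM in PP and 165, 185, 283 and 204 in LP, with an effect of -0.997 ± 0.26 and a limma adjusted p of 0.0588. Psme2 stood at 148, 92.6, 109 and 127 RPKM in PP and 84.8, 48.0, 72.5 and 92.0 in LP, with an effect of -0.69 ± 0.37 and a limma adjusted p of 0.338. Psme4, an activator known from sperm and DNA repair, ranged between 0.0280 and 3.41 RPKM in PP and between 2.36 and 9.59 in LP, with an effect of 1.62 ± 0.92 and a limma adjusted p of 0.365. Psmg1 had an effect of 1.10 ± 1.39 and a limma adjusted p of 0.737. Psmf1, the inhibitor of the core, stood at 0.232, 21.5, 59.9 and 67.0 RPKM in PP and 9.29, 4.95, 29.5 and 14.5 in LP, and the tissues overlapped.

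The immunoproteasome genes were lowest in wild-type LP. Their sums were 606, 930.4, 844 and 852 RPKM in PP, 267 and 209 RPKM in wild-type LP, and 563 and 408 RPKM in labelled knockout LP. Psmb8 and Psmb9 lie close together in the MHC region of chromosome 17 (chr17:34198195-34201454 and chr17:34182030-34187330, GRCm38.p6), and Psmb10 lies on chromosome 8 (chr8:105935728-105938392, GRCm38.p6). Psmb8 stood at 238, 546, 354 and 456 RPKM in PP and at 180.3, 122, 251 and 162 in LP. Psmb9 stood at 138, 111, 258 and 119 RPKM in PP and at 32.8, 3.92, 118 and 47.4 in LP, where wild-type LP replicate 2 was the lowest and labelled knockout LP replicate 1 was within the PP range. Psmb10 stood at 230.2, 273, 231 and 277 RPKM in PP and at 53.5, 83.6, 194 and 198 in LP, where the wild-type pair was well below the labelled knockout pair. For the average tissue effect 0 of the 3 passed, where 2.03% of all genes passed as lower, and 3 were lower at an unadjusted p under 0.05, against 10.8% of all genes. Psmb8 had -1.13 ± 0.32 (limma adjusted p 0.0831), Psmb9 had -2.25 ± 0.70 (limma adjusted p 0.110) and Psmb10 had -1.13 ± 0.37 (limma adjusted p 0.123). Per 100 RPKM of LTi and ILC3 markers each of the 3 overlapped between tissues, and the ratio of LP to PP was 0.849, 0.637 and 0.999.

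Each immunoproteasome gene was set against the constitutive gene whose place its product takes, as RPKM ratios chosen after the values were seen and therefore given without a test. Psmb8 to Psmb5 was 1.52, 2.93, 3.74 and 3.33 in PP and 5.31, 4.97, 15.5 and 11.8 in LP. Every LP ratio was above every PP ratio, and the labelled knockout LP pair was highest. Psmb9 to Psmb6 was 0.565, 1.80, 0.981 and 0.454 in PP and 0.184, 0.0182, 0.498 and 0.297 in LP, with overlap. Psmb10 to Psmb7 was 1.17, 2.83, 2.13 and 1.94 in PP and 0.664, 0.562, 1.61 and 1.44 in LP, with overlap. The 3 pairs therefore did not shift together: the ratio of Psmb8 to Psmb5 was higher in LP, while the medians of the other ratios were lower in LP, at 0.240 against 0.773 and at 1.05 against 2.04. Psmb8 itself was not higher in LP: its mean was 179 RPKM in LP and 398 in PP. The mean of Psmb5 was 22.1 RPKM in LP and 144 in PP. A ratio within a library does not depend on its scaling, and B and plasma cell markers were higher in LP; their part in these ratios was not tested.

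**Figure D4:**
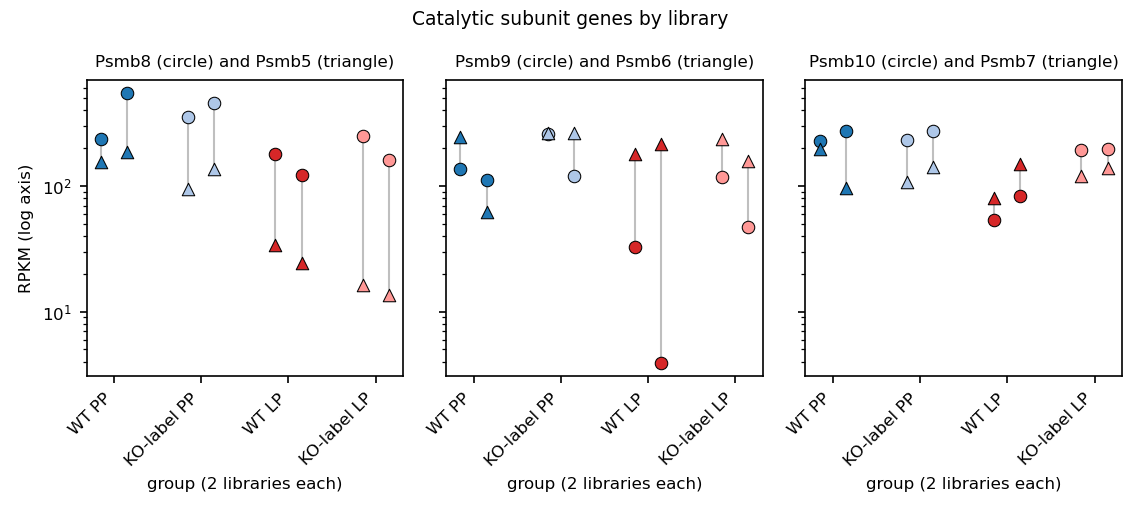
RPKM (log axis) of each immunoproteasome gene (circles) and its constitutive counterpart (triangles) in every library, by group; grey lines join the values of 1 library. In the left panel the gap between Psmb8 and Psmb5 is wider in all LP libraries (ratios of 4.97 to 15.5) than in any PP library (1.52 to 3.74).

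Within single genotypes, tissue differences passed for 1 gene each. In wild-type, Psmb10 fell by 1.89 ± 0.35 with a limma adjusted p of 0.0464, where 0.787% of all genes fell and 1.34% rose. Psmb5 was at -2.53 ± 0.49 (limma adjusted p 0.0553), Psme1 at -1.31 ± 0.31 (0.0925) and Psmd5 at -4.01 ± 0.95 (0.0932). At an unadjusted p under 0.05, 14 of the 46 were lower, against 7.17% of all genes, and 0 higher, against 9.78%. In wild-type, 40.9% and 41.2% of all genes kept were under 1 RPKM in PP, against 24.9% and 23.1% in LP. The part of this in the comparison was not tested. Of the 46, 30 had a fold change below 0, against 46.5% of all genes. Psmb9 was at -3.27 ± 0.97 (limma adjusted p 0.150) and Psmb8 at -1.28 ± 0.47 (0.231). Among genes with a positive fold change, the smallest p-values were those of Psme3, Psmb6, Psmc6 and Psme4, at 2.57, 0.67, 0.88 and 0.998, with limma adjusted p of 0.574 to 0.710. In all, 20 of the 46 genes had both LP libraries below both PP libraries and 0 had both above, against 21.4% and 26.0% of all genes. The call for Psmb10 was lost in every fit that left out 1 of the 8 libraries, with limma adjusted p of 0.0761 to 0.191, and on rescaling to LTi markers, where its fold change was -1.04.

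In the libraries labelled knockout, Psmb5 fell by 2.85 ± 0.49 from PP to LP with a limma adjusted p of 0.0414, where 1.07% of all genes fell and 0.930% rose. Psmc3, a cap ATPase, was at -1.24 ± 0.35 (limma adjusted p 0.156), with 153 and 191 RPKM in PP and 75.5 and 68.5 in LP. Psmd5 was at -2.90 ± 0.95 (limma adjusted p 0.219) and Psma1 at -1.64 ± 0.56 (0.230). At an unadjusted p under 0.05, 8 of the 46 were lower, against 8.96% of all genes, and 0 higher, against 5.76%. Here 39 of the 46 fold changes were below 0, against 58.4% of all genes. Psmb10 was at -0.37 ± 0.35 (limma adjusted p 0.677). The genes highest in LP by this fit were Psme4, Psmg1, Psmb2 and Psmb4, at 2.24, 1.45, 0.45 and 0.29, with limma adjusted p of 0.456 to 0.815. Both LP libraries were below both PP libraries for 25 of the 46 genes and above for 2, against 28.1% and 17.5% of all genes. The call for Psmb5 was lost in every fit that left out 1 of the 8 libraries, with limma adjusted p of 0.0561 to 0.167.

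The genotype label made no difference that passed. In PP, 0 of the 46 genes passed, where 0.360% of all genes did, and at an unadjusted p under 0.05, 2 were higher, against 7.98% of all genes, and 0 lower, against 3.42%. Fold changes below 0 numbered 18 of the 46, against 42.9%. Both libraries of the knockout label were above both of wild-type for 8 genes, against 22.7%, and below for 4, against 14.8%. Of all genes kept, 40.9% and 41.2% were under 1 RPKM in wild-type PP, against 26.1% and 26.7% in labelled knockout PP. The part of this in the differences between labels in PP was not tested. The median fold change, labelled knockout minus wild-type, was 0.23 over the 46 and 0.16 over all genes, and it turned to -0.35 for the 46 after median-of-ratios rescaling. The 2 genes were Psmf1, whose wild-type PP values of 0.232 and 21.5 RPKM compared with 59.9 and 67.0 RPKM under the knockout label (3.61 ± 1.38, limma adjusted p 0.370), and Psmd13, a cap subunit, with 78.7 and 31.5 RPKM against 222 and 154 RPKM (1.87 ± 0.79, limma adjusted p 0.434). Psmd11 and Psma7 followed at 3.25 and 0.97, and the genes leading in the other direction were Psmd2, Psma4, Psmb5 and Psmb1 at -1.07, -0.84, -0.58 and -0.32, with limma adjusted p of 0.529 to 0.757. Psmb8, Psmb9 and Psmb10 were at 0.16, 0.50 and 0.01, with limma adjusted p of 0.913 to 1.

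In LP, 0 of the 46 genes passed between genotype labels, where 0.0285% of all genes did, and at an unadjusted p under 0.05, 2 were higher, against 1.96% of all genes, and 1 lower, against 3.31%. In LP 18 of the 46 fold changes were below 0, against 53.5%. Both libraries of the knockout label were above both of wild-type for 13 genes, against 15.3%, and below for 5, against 20.3%. The median was 0.24 over the 46 and -0.06 over all genes. Psmb10 was the first of them, at 53.5 and 83.6 RPKM in wild-type LP and 194 and 198 RPKM in labelled knockout LP. The pairs did not overlap, the fold change was 1.54 ± 0.35 and the limma adjusted p 0.344 (0.204 to 0.697 over 17 alternatives, none of which passed). Psmb9 was at 2.56 ± 0.97 (limma adjusted p 0.848), with 32.8 and 3.92 RPKM against 118 and 47.4 RPKM. Psmc3 was lower, at 124 and 142 RPKM against 75.5 and 68.5 RPKM (-0.88 ± 0.35, limma adjusted p 0.891). Psmd5, Psmg4, Psmb5, Psme3 and Psma5 followed at 2.05, 1.43, -0.91, -2.22 and -0.76, each with a limma adjusted p of 1.

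The interaction asks how far the LP and PP genotype effects differ (LP minus PP). It had 0 of 46 genes past the threshold, where 0.0285% of all genes passed, and at an unadjusted p under 0.05, 1 was higher, against 2.38%, and 1 lower, against 6.37%. The estimate was below 0 for 26 of the 46, against 58.6%. The pair with small p-values were Psmb10 at 1.52 ± 0.49 (limma adjusted p 0.405) and Psmc3 at -1.20 ± 0.50 (limma adjusted p 0.558). Psma4, Psmd10 and Psmb9 were at 1.90, 2.96 and 2.06, and Psma5, Psme3 and Psmb6 at -1.78, -3.89 and -1.10, with limma adjusted p of 0.633 to 0.789. So the fall of Psmb10 from PP to LP passed in wild-type and not under the knockout label, and the difference between the labels did not pass. The average genotype effect also had 0 of 46 genes past the threshold, where 0.00949% of all genes passed, with 0 lower at an unadjusted p under 0.05 (2.87% of all genes) and 3 higher (3.94%): Psmd13 at 1.49 ± 0.55, Psmf1 at 2.54 ± 0.99 and Psma7 at 0.73 ± 0.33, with limma adjusted p of 0.709 to 0.726. Psmb9 was at 1.53 ± 0.70 (limma adjusted p 0.727), and Psmb5, Psmc1, Psmd3 and Psmc3 led in the other direction, from -0.75 to -0.28, with limma adjusted p of 0.740 to 0.928. No gene of the 46 had its 4 labelled knockout libraries all above or all below the 4 wild-type libraries, against 1.66% and 1.24% of all genes. The average effect was below 0 for 13 of the 46, against 45.8%.

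Genes that act around the proteasome were read from 3 lists. Of 26 partners in ubiquitin transfer and proteasome supply, 25 were tested, and 0 passed in any of the 7 comparisons. This list also held Adrm1 and Sem1, cap subunits whose symbols fall outside the rule. Sem1 stood at 528, 756, 833 and 670 RPKM in PP and 540, 585, 511 and 358 in LP, which the proteasome sums leave out. Pomp, the chaperone that matures the core, stood at 279, 169.6, 298 and 261 RPKM in PP and 166, 146, 105 and 139 in LP, with an average tissue effect of -0.84 ± 0.30 (limma adjusted p 0.159). Uba1, the ubiquitin-activating enzyme, was at -1.40 ± 0.56 (limma adjusted p 0.200). Nfe2l1, the transcription factor known for raising proteasome genes through antioxidant response elements, stood at 0.105, 0.0926, 7.70 and 44.4 RPKM in PP and 0.524, 0.351, 21.4 and 17.9 in LP. All 4 libraries of the knockout label were above all 4 of wild-type, with an average genotype effect of 4.01 ± 0.94, and the limma adjusted p was 0.527. Akirin2, a factor for nuclear import of proteasomes, had an average genotype effect of 2.67 ± 0.80 (limma adjusted p 0.709).

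All 11 genes of MHC class I processing were tested. Tapbp, the tapasin gene, fell from PP to LP on average: it stood at 548, 334, 349 and 351 RPKM in PP and at 127, 135, 109 and 173 RPKM in LP, without overlap, at -1.52 ± 0.28 and a limma adjusted p of 0.0128. H2-K1, a class I heavy chain, rose from PP to LP in the libraries labelled knockout, from 1475 and 1623 RPKM to 2761 and 4095 RPKM (1.12 ± 0.20, limma adjusted p 0.0436). In the other 5 comparisons 0 of the 11 passed. Of 22 interferon response genes, 16 were tested. Socs1, an inhibitor of cytokine signalling, and Isg15, a ubiquitin-like modifier, rose from PP to LP on average. Socs1 stood at 218, 135, 114 and 80.0 RPKM in PP and 398, 407, 353 and 382 in LP (1.58 ± 0.29, limma adjusted p 0.0125), and also rose within the libraries labelled knockout (1.93 ± 0.35, limma adjusted p 0.0453). Isg15 stood at 18.6, 0.506, 9.61 and 0.460 RPKM in PP and 89.5, 101, 79.5 and 66.3 in LP (4.19 ± 0.93, limma adjusted p 0.0320). Over the whole lists, the average tissue effect was below 0 for 12 of 25 partners (median 0.09), 4 of 11 class I genes (median 0.25) and 11 of 16 interferon response genes (median -0.37), against 53.0% of all genes and an all-gene median of -0.10. Ube2l6, the enzyme that conjugates Isg15, was at 0.0650 to 0.131 RPKM in the 4 wild-type libraries and 15.02 to 41.1 RPKM in the 4 libraries of the knockout label, with an average genotype effect of 4.56 ± 0.89 and a limma adjusted p of 0.331.

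The remaining genes of smallest p in these lists did not pass in the comparison named. Between genotype labels in PP they were Akirin2 at 3.74, Nfe2l1 at 4.18, H2-K1 at -0.62, H2-D1 at -0.62, Ube2l6 at 4.76 and Socs1 at -0.84, with limma adjusted p of 0.134 to 0.454. In LP they were Nfe2l1 at 3.84, Rps27a at -1.32, H2-K1 at 0.61, H2-D1 at 0.50, Ube2l6 at 4.35 and Igtp at 1.59, with limma adjusted p of 0.406 to 1. The class I heavy chains H2-K1 and H2-D1 thus had opposite signs in PP and LP, and their interactions of 1.23 and 1.13 had limma adjusted p of 0.309 and 0.427. Ubb, Zfand2a, Igtp and Irf9 followed in the interaction at 0.49, -2.86, 2.28 and -4.53, with limma adjusted p of 0.389 to 0.717. From PP to LP in wild-type, Akirin2 was at 2.996, Uba1 at -2.06, Tapbp at -1.70, Calr at 2.33, Igtp at -2.38 and Bst2 at -1.15, with limma adjusted p of 0.0713 to 0.261. Under the knockout label, Pomp was at -1.20, Ubb at 0.60, Tapbp at -1.34 and Isg15 at 4.23, with limma adjusted p of 0.143 to 0.225. On average, Pdia3 was at -0.64 between tissues (limma adjusted p 0.197), and Calr, Tap2 and Irf8 were at 0.84, 0.43 and 1.21 between genotype labels, with limma adjusted p of 0.726 to 0.853.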

How the data were processed

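RNA of LTi cells was measured in 8 libraries. The authors deposited RPKM per gene on a log2 scale after adding 1, and wrote 0.0001 where the value was 0. Per the submitters' processing notes, featureCounts (Subread) and mm10 were used. Their versions, the annotation and the strandedness of counting are not stated in those notes. After undoing log2, 67.3% of 153 values were whole reads within 0.1 reads; with a natural logarithm the share was 15.5% of 142. Depth came from single-read steps in 4159 genes with 1 GENCODE M21 transcript, where 52.6% to 57.5% of values were whole within 0.03 reads. Smart-seq2 reads carry no molecular identifiers, so PCR copies are counted as separate reads. Symbols and positions came from RefSeq (GRCm38.p6, the assembly of mm10), which matched 25275 of 27179 identifiers.

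The 10541 genes that reached 1 RPKM in 2 or more libraries entered limma 3.58.1 (R 4.3.3; eBayes with a mean trend) on log2(RPKM + 1), two-sided, with Benjamini-Hochberg adjustment over all genes and a threshold of 0.05. Effects within a tissue or genotype and the interaction came from a 4-group model with 4 residual degrees of freedom, and average effects from an additive model with 5. All 46 tested genes are counted by role. Always named are Psmb5 to Psmb10, Psme1 and Psme2; per comparison, every passing gene, filled to 4 per direction by smallest p; genes left out by the filter; the highest and lowest mean of each role; and from each related list every passing gene, otherwise the 2 of smallest p per comparison. The genes, lists and markers were chosen with earlier results of these data known. The fits were also run on simulated data with planted changes, and the outcome is not reported here. Each gene was given the deviations of a gene of similar mean, shuffled between libraries and with random signs, so those data hold no shift of a whole library. Alternatives changed the pseudocount, filter, scaling, replicate block, libraries in the fit and each library in turn; rescaling to the LTi marker sum was chosen after seeing the data. The Cre driver and single values of some marker genes are not reported here.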

Additional observations from a re-analysis of the deposited data

How the results depend on the processing

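Of the 46 genes, 0 passed for either genotype comparison, the interaction or the average genotype effect in every setting run. For tissue in wild-type, 2 passed (Psmb10 and Psmb5) with a pseudocount of 5, with no filter and with median-of-ratios rescaling. There 0 passed with a filter on the mean, without immunoglobulin and mitochondrial genes, with the replicate block, with only the groups compared, with LTi rescaling and with any library left out (0 to 0). For tissue under the knockout label, 0 passed with a pseudocount of 0.1, the filter on the mean, median-of-ratios or LTi rescaling, the replicate block, only the groups compared or any library left out (0 to 0). For average tissue, 1 passed with a pseudocount of 0.1, and 1 to 3 with a library left out: Psmb5 passed each time, and it alone without wild-type PP replicate 2, labelled knockout PP replicate 1 or 2, or wild-type LP replicate 2. Deviations of the replicate 1 libraries from their group means correlated between groups at -0.02 to 0.01. With 2 libraries a group and wide gaps between them, this cannot show whether libraries of the same number shared an animal or day. With the block 2 genes (Psmb5 and Psmd5) passed for average tissue.

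The median over the 46 became -0.35, 0.46, -0.81, -0.38 and 0.63 under median-of-ratios rescaling, for genotype in PP, genotype in LP, tissue in wild-type, tissue under the knockout label and the interaction. That rescaling moved the median of all genes by -0.22, 0.11, -0.11, 0.30 and 0.57. Under LTi rescaling, which moved all genes by 0.64, 0.65 and 0.62 in the tissue comparisons and by 0.12 in the interaction, it became 0.29, 0.12 and 0.21 for tissue in wild-type, tissue under the knockout label and average tissue. With a library left out it ranged from -0.81 to -0.50, from -0.86 to -0.62 and from -0.85 to -0.57 for these 3, and from -0.25 to 0.14 for the interaction. Leaving out immunoglobulin and mitochondrial genes moved all genes by 0.13 for tissue in wild-type. Single genes turned as well. Under LTi rescaling Psmb7 was at 0.52 for tissue in wild-type and 0.77 for average tissue, Psme2 at 0.21 for average tissue, and Psmb10, Psmb6, Psme1 and Psme2 at 0.60, 0.54, 0.28 and 0.44 for tissue under the knockout label, where median-of-ratios gave Psmb10 0.0913 and Psmb6 0.0269. With a library left out, Psmb1 ranged from -0.68 to 0.0335 for genotype in PP. For tissue in wild-type the ranges were -0.31 to 1.65 for Psmb6, -0.21 to 1.97 for Psmc6, -0.0532 to 2.05 for Psme4 and -0.84 to 0.18 for Psmb7. For tissue under the knockout label they were -0.10 to 0.68 for Psmb4, -0.55 to 3.46 for Psmg1 and -0.14 to 0.25 for Psmb7. For average tissue they were -0.0700 to 2.41 for Psmg1, -0.39 to 0.40 for Psmb6 and -0.30 to 0.10 for Psmb7.

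Over all genes, the counts passing were as follows for genotype in PP (38), genotype in LP (3), tissue in wild-type (224), tissue under the knockout label (211), the interaction (3), average genotype (1) and average tissue (456). With the replicate block 16, 0, 99, 74 and 1 passed for the first 5. With only the groups compared 0 passed in each of the first 4. With no filter 76 and 56 passed for genotype in PP and LP, 36 for the interaction and 282 for average tissue. With a pseudocount of 0.1, 0 passed for genotype in LP, and with 5, 10 for the interaction and 2 for average genotype. Median-of-ratios and LTi rescaling each gave 23 for genotype in PP, and LTi rescaling 377 for tissue in wild-type. With a library left out the counts ranged from 1 to 34, 0 to 3, 0 to 192, 7 to 161, 0 to 2, 1 to 4 and 225 to 438. Of the calls, 62.9% were higher for tissue in wild-type, 46.4% under the knockout label and 53.1% on average, against 87.0%, 78.2% and 88.8% under LTi rescaling. Under median-of-ratios rescaling they were 50.2% and 65.2% for the first 2, and 47.8% against 73.7% for genotype in PP. The cause of these changes was not tested. With 2 libraries a group, the median standard error of a 2-group fold change was 0.74 over the 46 genes.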
